A study of Mus musculus with 20 samples.

Results

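The imprinted genes described here are Dlk1, Meg3, Peg3, Mest, Plagl1, Cdkn1c, Grb10, Ndn, Sgce and Peg10, which were taken by symbol. All 10 were found by their Ensembl identifiers among the 45706 genes counted in each library. RNA-Seq had been performed on 8 tumors and 12 cell libraries, in 6 groups, to follow the loss of cathepsin D (CTSD), a lysosomal aspartic protease, in PyMT breast cancer. The PyMT mice carry the polyoma middle T oncogene under the MMTV promoter and develop mammary tumors. The tumors came from 18-week-old mice, 4 CTSD-competent controls and 4 MMTV-cre;Ctsd-/- mice, in which Cre is driven by MMTV in mammary epithelium, so that RNA of the other cells of a tumor adds to the libraries. The cells were spontaneously immortalized primary tumor cells from PyMT mice, 1 Ctsd+/+ line and 1 Ctsd-/- line from an MMTV-cre;Ctsd-/- tumor. Each line was kept in starvation medium with 1% FCS for 10 days (1% FCS) or for 12 weeks (1% FCS LT), with 3 libraries per line and time. The Ctsd genotype and the line therefore cannot be told apart in the cells, and p-values in cells measure the spread between cultures of the same line.

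Imprinted genes are read mainly from the copy inherited from either the mother or the father. The choice is set by DNA methylation that is laid down in the egg or the sperm at control regions rich in the dinucleotide CG, and neighboring genes often share such a region. Most imprinted genes are active in the embryo and placenta, decline after birth and affect growth, and adult tissue keeps lower levels, for instance in stromal and stem cells. Read counts sum both copies, so the parental origin of the transcripts was not measured. Dlk1, Peg3, Mest, Plagl1, Ndn, Sgce and Peg10 are known as paternally expressed, and Meg3, Cdkn1c and, in most tissues, Grb10 as maternally expressed.

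The 10 genes lie in 8 neighborhoods of the genome (GENCODE M21 gene models, GRCm38). Sgce (chr6:4674350-4747207, minus strand) and Peg10 (chr6:4747306-4760517, plus strand) are transcribed away from each other from starts 99 bases apart. Mest lies on the same chromosome (chr6:30723547-30748465, plus strand), and its 3′ end overlaps Copg2, on the opposite strand, by 912 bases. Peg3 (chr7:6703892-6730431, minus strand) starts 147 bases from Usp29, which runs the other way. Ndn (chr7:62346569-62350262, plus strand) belongs to the Snrpn cluster. Cdkn1c (chr7:143458339-143461050, minus strand) lies in the Kcnq1 cluster, 165 kb from the start of the noncoding RNA Kcnq1ot1 (chr7:143203458-143296549, minus strand) and 1.07 Mb from the start of Ctsd itself (chr7:142375911-142388038, minus strand). Plagl1 (chr10:13060504-13131694, plus strand) and Grb10 (chr11:11930508-12038683, minus strand) lie apart from the others, and Dlk1 (chr12:109452823-109463336, plus strand) and Meg3 (chr12:109541001-109571726, plus strand) start 88.2 kb apart in 1 cluster.

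For 5 genes that differed in the comparisons below, the exon-free stretch directly before an annotated start is shown, 5′ to 3′ on the gene's own strand (RefSeq, GRCm38.p6). Each CG, the pair of bases at which DNA methylation is set, is in capitals. Peg3 (chr7:6730432-6730577, minus strand) and Mest (chr6:30737800-30738049, plus strand) are shown because they moved in the cells. Meg3 (chr12:109540746-109540995, plus strand) is shown as a gene read in tumors and, in 12 cell libraries, with 1 count in all. Kcnq1ot1 (chr7:143296550-143296797, minus strand) and Peg12 (chr7:62464511-62464760, minus strand), which are not among the 10 genes, are shown because neither had a single count in the Ctsd-/- line. Sgce and Peg10, with larger differences in cells, had no entry.
Peg3: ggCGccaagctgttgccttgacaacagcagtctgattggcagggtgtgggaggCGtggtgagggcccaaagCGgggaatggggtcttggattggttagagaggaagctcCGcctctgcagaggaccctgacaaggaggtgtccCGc
Mest: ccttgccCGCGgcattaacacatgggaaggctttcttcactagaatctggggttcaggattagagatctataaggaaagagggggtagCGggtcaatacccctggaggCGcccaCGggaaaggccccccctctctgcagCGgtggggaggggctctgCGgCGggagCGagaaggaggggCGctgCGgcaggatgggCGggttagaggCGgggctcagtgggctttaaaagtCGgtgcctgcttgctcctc
Meg3: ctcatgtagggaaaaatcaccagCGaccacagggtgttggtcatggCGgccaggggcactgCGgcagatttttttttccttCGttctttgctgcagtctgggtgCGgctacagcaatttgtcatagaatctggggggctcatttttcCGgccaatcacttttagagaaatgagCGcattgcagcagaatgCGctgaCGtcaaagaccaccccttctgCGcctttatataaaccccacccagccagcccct
Kcnq1ot1: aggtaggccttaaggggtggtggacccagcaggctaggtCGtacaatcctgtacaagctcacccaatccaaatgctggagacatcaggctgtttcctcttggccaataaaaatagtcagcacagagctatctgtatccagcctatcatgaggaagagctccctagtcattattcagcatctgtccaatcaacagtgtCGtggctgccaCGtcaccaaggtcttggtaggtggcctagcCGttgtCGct
Peg12: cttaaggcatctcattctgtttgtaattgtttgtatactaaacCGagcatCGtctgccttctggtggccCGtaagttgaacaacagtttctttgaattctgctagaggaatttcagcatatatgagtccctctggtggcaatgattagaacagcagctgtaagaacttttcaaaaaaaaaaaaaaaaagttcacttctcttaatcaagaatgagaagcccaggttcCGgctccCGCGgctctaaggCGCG
These stretches held 5 CG in 146 bases for Peg3, 14 in 250 bases for Mest, 10 in 250 for Meg3, 5 in 248 for Kcnq1ot1 and 8 in 250 for Peg12. The Peg3 stretch is the gap between the first exons of Peg3 and Usp29, so it precedes both genes.

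Promoter windows, from 250 bases before to 50 bases after an annotated start, were given for 7 of the 10 genes, in 11 windows. Sgce, Peg10 and Cdkn1c had no entry. Across 32851 windows of all genes the median number of CG was 7, with quartiles of 3 and 20. The first Grb10 window held 45 CG, more than 98.1% of all windows, Plagl1 held 26, the windows of Mest at the start printed above held 17, Peg3 and Meg3 held 13, Ndn 11 and Dlk1 9. All 7 genes thus had a window above the median. The motifs searched, as letters on both strands, were TGACG (the core of the CREB binding site), GGGGCCCC and GATGGC (the core of the YY1 binding site), none of which contains another. TGACG was found in 4 of the 11 windows (36.4%), those of Dlk1, Grb10, Meg3 and Peg3, against 20.8% of all windows. In the Meg3 stretch above it reads on both strands, at ctgaCGtcaaag. GGGGCCCC was found in 1 of the 11 windows (9.09%), that of Peg3, against 1.08% of all windows. GATGGC was found in 2 of the 11 windows (18.2%), those of Grb10 and Plagl1, against 14.1%. A match of letters is a description of the window and no evidence of binding.

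Library depth, as uniquely mapped reads assigned to genes, was 49725437 to 64291587 in tumors and 33622831 to 40239762 in cells. Levels are given as CPM, counts relative to library size with TMM scaling over all 20 libraries, and 3 counts correspond to at most 0.0731 CPM in tumors and 0.0913 CPM in cells. Ctsd was checked first. In MMTV-cre;Ctsd-/- tumors it lay at 344 to 1280 CPM against 1740 to 2540 in controls, and in the Ctsd-/- line at 118 to 197 CPM against 1260 to 4050 in the Ctsd+/+ line, with no overlap in either. The tumor libraries of each genotype carry a single LR number of their own in the sample labels, so this number and genotype cannot be told apart there. In cells, 8 libraries share an LR number, and replicate 1 of each 1% FCS group and replicate 3 of each 1% FCS LT group have others. Libraries that stood apart were the Ctsd+/+ 1% FCS replicate 1, with 12.1 CPM of Igf2 against 0.517 and 0.0522 in the other 2, the Ctsd-/- 1% FCS LT replicate 1 for Sgce and Peg10, and control tumor 4 and MMTV-cre;Ctsd-/- tumor 1, with 928 and 226 CPM of 5 summed skeletal muscle markers against 3.49 to 62.3 in the other tumors. The values without them are given where a result rests on them.

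The cells differed by group in lineage markers, and the values are given here once for all comparisons of cells. The sum of 8 epithelial markers was 884 to 1720 CPM in Ctsd+/+ 1% FCS, 4530 to 4890 in Ctsd+/+ 1% FCS LT, 7500 to 10300 in Ctsd-/- 1% FCS and 5400 to 6270 in Ctsd-/- 1% FCS LT. The sum of 8 fibroblast markers was 32700 to 65200, 19300 to 28900, 12500 to 16500 and 9050 to 12700 CPM in the same order, with Dpt at 0 counts in every group and Lum at 0 in both 1% FCS groups. Fn1 carried most of this sum, with a mean of 48500, 22700, 14100 and 10800 CPM, while Col1a1 had a mean of 1430 CPM in Ctsd+/+ 1% FCS cells and 1.49, 3.11 and 3.22 CPM in the other 3 groups. In 1% FCS, 6 of 7 epithelial markers tested were past the threshold and higher in Ctsd-/- cells and 1 was lower, while 6 of 6 fibroblast markers tested were lower. The part of these lineage differences in the results on imprinted genes was not tested.

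Tumors and cells differed in which imprinted genes were read at all. Grb10, an adaptor that binds the insulin and IGF1 receptors, led in control tumors with 28.4 ± 15 CPM (SD, n = 4). Per kilobase of exon, the scale on which genes can be compared, it stood at 3.13 CPM, ahead of Cdkn1c at 1.65, Ndn at 1.37, Sgce at 1.28, Peg3 at 1.23 and Plagl1 at 0.668. Meg3 and Mest were lower, at 0.251 and 0.241 CPM per kilobase, and Peg10 and Dlk1 closed the order at 0.0382 and 0.0139. In Ctsd+/+ cells in 1% FCS the order was another, with Peg10 at 4.06 CPM per kilobase, Sgce at 3.24, Peg3 at 1.33 and Mest at 0.817 in front. In Ctsd-/- cells in 1% FCS LT, Mest led with 10.5 CPM per kilobase, followed by Cdkn1c at 1.38.

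**Figure D1:**
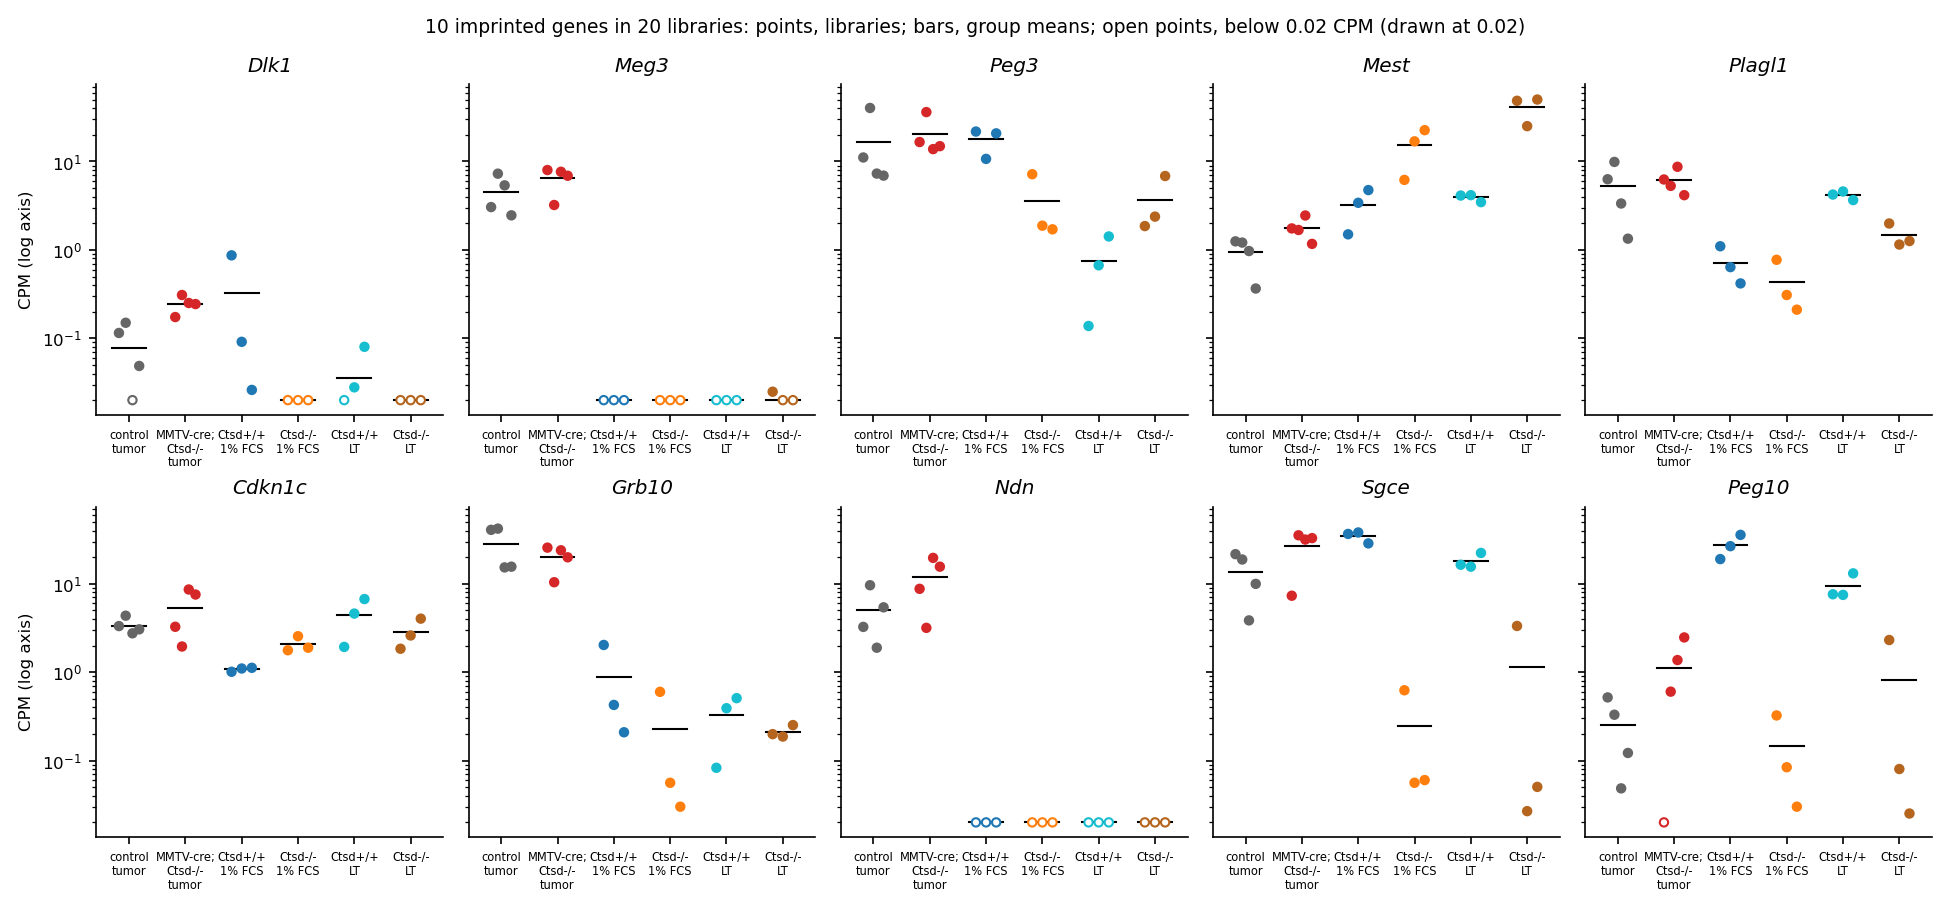
Level of each of the 10 imprinted genes in the 20 libraries, in CPM on a log axis; each point is a library, bars are group means, and open points lie below the lower end of the axis and are drawn there. Meg3 and Ndn are read in all 8 tumors and lie at the lower end in the cells, whereas Sgce and Peg10 are high in both Ctsd+/+ cell groups and low in both Ctsd-/- cell groups.

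The order of the 6 groups differed by gene. Mest, a member of the alpha/beta hydrolase fold family, was highest in Ctsd-/- 1% FCS LT cells (41.3 ± 14.0 CPM, n = 3), then in Ctsd-/- 1% FCS cells (15.2 ± 8.34), and the ranges of these 2 groups were apart from each other and from Ctsd+/+ 1% FCS LT cells (3.92 ± 0.383). Below them, Ctsd+/+ 1% FCS cells and the tumors followed with neighboring ranges that overlapped, where the tumor values leave out reads in the overlap with Copg2. Peg10 was highest in Ctsd+/+ 1% FCS cells (27.1 ± 8.34 CPM), then in Ctsd+/+ 1% FCS LT cells (9.40 ± 3.22), both apart from the next group, and the 4 other groups overlapped with their neighbors. Plagl1, a zinc finger transcription factor, was similar in both tumor groups (6.11 ± 1.93 CPM in MMTV-cre;Ctsd-/- and 5.22 ± 3.72 in control tumors) and in Ctsd+/+ 1% FCS LT cells (4.15 ± 0.462), with overlapping ranges, and lower in the other 3 cell groups. For Cdkn1c, which encodes the cell cycle inhibitor p57, ranges of neighboring groups overlapped from 5.34 ± 3.23 CPM in MMTV-cre;Ctsd-/- tumors down to 2.07 ± 0.420 in Ctsd-/- 1% FCS cells, and only the lowest group, Ctsd+/+ 1% FCS cells at 1.08 ± 0.0573, was apart.

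Of the 10 genes, 3 were near or at 0 in the cells. Ndn, encoding the growth suppressor necdin, had 0 counts in all 12 cell libraries and 1.89 to 19.6 CPM in the 8 tumors. Meg3, a long noncoding RNA, had 1 count over the 12 cell libraries and 2.46 to 8.0 CPM in the tumors. Dlk1, encoding a membrane protein related to Notch ligands, was low in both, with at most 0.309 CPM in tumors and 38 counts over 5 of the 12 cell libraries, 30 of them in Ctsd+/+ 1% FCS replicate 1. These 3 genes did not pass the filter on low counts in cells, which left 7 of the 10 tested there, while all 10 passed in tumors and in the comparison of tumors with cells.

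Control tumors and the 6 Ctsd+/+ cell libraries were compared in 1 fit over all 20 libraries. They differ in material, RNA input, library strandedness, counting and LR number, which cannot be told apart from each other. Of all 19180 genes tested, 66.3% were past the threshold, an adjusted p below 0.05 with a log2 fold change beyond 1 in either direction, and the median gene lay 0.468 higher in tumors. By the edgeR quasi-likelihood test 7 of the 10 imprinted genes were past the threshold, 5 higher and 2 lower in tumors, a share near that of all genes. Of the 5, Meg3 and Ndn, at or near 0 in cells, passed the filter only through the tumors and could only come out higher there. The median log2 difference of the 10 genes, which includes Meg3 and Ndn, was 1.11. Of 51 other imprinted genes tested, 21 were higher and 8 lower, with a median of 0.734.

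Grb10 had 15.3 to 42.0 CPM in control tumors against 0.0829 to 2.03 CPM in Ctsd+/+ cells (log2 fold change 5.71 ± 0.636 SE, edgeR adjusted p = 1.54e-07). The ranges did not overlap, and the share of all genes for which this holds was not counted in this comparison. For Ndn and Meg3, with no count in the Ctsd+/+ cells, the floor of 3 counts per library set the mean of control tumors at least 55.3-fold and at least 49.8-fold higher. Peg3 (log2 fold change 2.17, edgeR adjusted p = 0.00271) and Plagl1 (1.60, adjusted p = 0.00258) were also higher in tumors. Peg10, a gene derived from a retrotransposon and needed in the placenta, was lower in tumors, at 0.0485 to 0.518 CPM against 7.48 to 35.7 (log2 fold change -5.92 ± 1.13 SE, edgeR adjusted p = 0.000102). Mest was lower too (-1.88 ± 0.408 SE, adjusted p = 0.000346), but its tumor value leaves out reads in the overlap with Copg2. Control tumors had 15 to 87 counts of Mest regardless of strand and 96 to 190 and 71 to 201 on the 2 strands taken alone. The counts on single strands include overlap reads that can come from Copg2, since the tumor libraries do not keep the strand. Sgce, which shares its start region with Peg10, was not past the threshold (log2 fold change -0.88, adjusted p = 0.275), nor were Cdkn1c (0.63, adjusted p = 0.138) and Dlk1 (-0.45, adjusted p = 0.697). Without Ctsd+/+ 1% FCS replicate 1 the log2 fold change of Dlk1 was 0.77, and without Ctsd+/+ 1% FCS LT replicate 3 it was 0.16. Among the other imprinted genes Nnat was at least 202-fold, Tfpi2 at least 59.7-fold and Dio3 at least 15-fold higher in tumors, the noncoding RNA Rian of the Dlk1-Meg3 cluster lay at 0.534 to 1.80 CPM in control tumors and at most 0.138 CPM in cells, and Igf2r was lower (-2.71, adjusted p = 1.81e-07). The value of Gnas reflects counting, since reads in gene overlaps are left out where strand is not used. Its count in tumors was 13 to 55 regardless of strand, and 6009 or more on either strand alone.

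In tumors, loss of CTSD in the mammary epithelium went with higher counts of 4 imprinted genes at the study's threshold, an unadjusted p under 0.1. At that threshold 16.7% of the 18617 genes tested were called, 8.44% as higher. Peg10, Dlk1, Ndn and Mest were past it and higher in MMTV-cre;Ctsd-/- tumors, and none was lower. None had an adjusted p under 0.05 by edgeR, DESeq2 or limma-voom (0 of 10, of the 9 with an adjusted p and of 10, against 0.00537% of all genes by edgeR), and none had an unadjusted p under 0.05 by edgeR, 3 by DESeq2 and 1 by limma-voom. The sign was positive for 9 of the 10 genes and for 33 of 50 other imprinted genes, against 9322 of 18617 genes tested. The median log2 fold change of the 10 genes was 0.763, against 0.139 over the 50 others and 0.000728 over all genes. The 10 genes were chosen with earlier results of these data known. Neighbors such as Sgce and Peg10 also do not count independently, so the sign and the median are descriptive. Fewer cells of a type and less RNA per cell cannot be told apart in bulk tumors. Single genes were also compared by an exact two-sided permutation test of the mean log2 CPM, which cannot go below 0.0286 with 4 tumors against 4.

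Dlk1 was the only one of the 10 whose tumor groups did not overlap, as was the case for 4.09% of all genes tested. It had 0.115, 0.15, 0 and 0.0487 CPM in control tumors 1 to 4 and 0.174, 0.309, 0.251 and 0.244 CPM in MMTV-cre;Ctsd-/- tumors 1 to 4. These levels rest on 0 to 10 and 12 to 21 counts (log2 fold change 1.58 ± 0.786 SE, unadjusted edgeR p = 0.0722, adjusted p = 0.578, exact permutation p = 0.0286, the smallest possible). Ndn had 3.25, 9.62, 1.89 and 5.41 CPM in controls and 8.76, 3.17, 19.6 and 15.6 CPM in MMTV-cre;Ctsd-/- tumors (1.21 ± 0.592 SE, unadjusted edgeR p = 0.0677, adjusted p = 0.576, exact permutation p = 0.229). MMTV-cre;Ctsd-/- tumors 1 and 2 lay inside the control range of Ndn and tumors 3 and 4 above it. Mest had 1.25, 1.21, 0.971 and 0.366 CPM against 1.75, 1.68, 2.45 and 1.17 (0.88 ± 0.443 SE, unadjusted edgeR p = 0.075, adjusted p = 0.578, exact permutation p = 0.0857), with MMTV-cre;Ctsd-/- tumor 4 inside the control range. With the counts of both strands summed, the value of Mest was 0.43 and not past the threshold. This sum keeps reads in the overlap with Copg2, where reads of Mest and of Copg2 cannot be told apart in tumors.

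Peg10 had 0.518, 0.33, 0.0485 and 0.122 CPM in controls and 0.0145, 0.602, 1.37 and 2.47 CPM in MMTV-cre;Ctsd-/- tumors (log2 fold change 2.08 ± 1.07 SE, unadjusted edgeR p = 0.0799, adjusted p = 0.583, exact permutation p = 0.343). The lowest of the 8 tumors for Peg10 was thus MMTV-cre;Ctsd-/- tumor 1, and tumors 2 to 4 of that genotype were above all controls. Sgce, its neighbor, had 21.6, 18.8, 3.85 and 9.97 CPM against 7.32, 35.3, 31.6 and 32.8 and showed the same order of MMTV-cre;Ctsd-/- tumor 1 below tumors 2 to 4 (0.97 ± 0.565 SE, unadjusted edgeR p = 0.116, exact permutation p = 0.2). Across the 8 tumors Pearson's r between log2 CPM of Sgce and Peg10 was 0.901, the highest of the 45 pairs among the 10 genes (range -0.0421 to 0.901, median 0.415); the libraries share genotype and tissue makeup, and the value is descriptive.

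The remaining genes were not past the threshold. Cdkn1c had 3.32, 4.35, 2.75 and 3.05 CPM in controls and 3.26, 1.95, 8.61 and 7.55 CPM in MMTV-cre;Ctsd-/- tumors (log2 fold change 0.65 ± 0.445 SE, edgeR adjusted p = 0.653). Meg3 lay at 2.46 to 7.28 against 3.22 to 8.0 CPM (0.50 ± 0.409 SE, adjusted p = 0.698). Peg3, a zinc finger protein, had 40.3 CPM in control tumor 2 and 36.2 CPM in MMTV-cre;Ctsd-/- tumor 2 and 6.92 to 16.6 CPM in the 6 others (0.32 ± 0.577 SE, adjusted p = 0.861). Plagl1 (0.22 ± 0.52 SE, adjusted p = 0.896) and Grb10 (-0.52 ± 0.407 SE, adjusted p = 0.688) overlapped between the groups as well.

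Other tissue markers moved with the tumor groups. The sum of 6 adipocyte markers was 217 to 2190 CPM in controls and 1090 to 11400 CPM in MMTV-cre;Ctsd-/- tumors, highest in tumors 3 (6780) and 4 (11400), and 6 of 6 markers were past the threshold and higher, with a median log2 fold change of 2.80. The sum of 4 brown adipocyte markers was 6.13 to 25.1 against 20 to 159 CPM, and that of 5 endothelial markers 44.0 to 91.7 against 58.0 to 231 CPM, again highest in tumors 3 and 4. Fibroblast markers summed to 799 to 3240 against 1510 to 2580 CPM and epithelial markers to 4790 to 7840 against 4010 to 6300 CPM. No marker of these lists was at 0 in every tumor of a group. The brown adipocyte markers Ucp1 (0 to 12 counts) and Elovl3 (0 to 47 counts) reached 0 in control tumors. Cdkn1c, Ndn and Peg10 were likewise highest in MMTV-cre;Ctsd-/- tumors 3 and 4. Dlk1, Meg3, Peg3, Mest, Plagl1, Grb10 and Sgce did not have these tumors as their top pair. The part of adipocyte, endothelial and muscle content in the differences of imprinted genes was not tested.

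**Figure D2:**
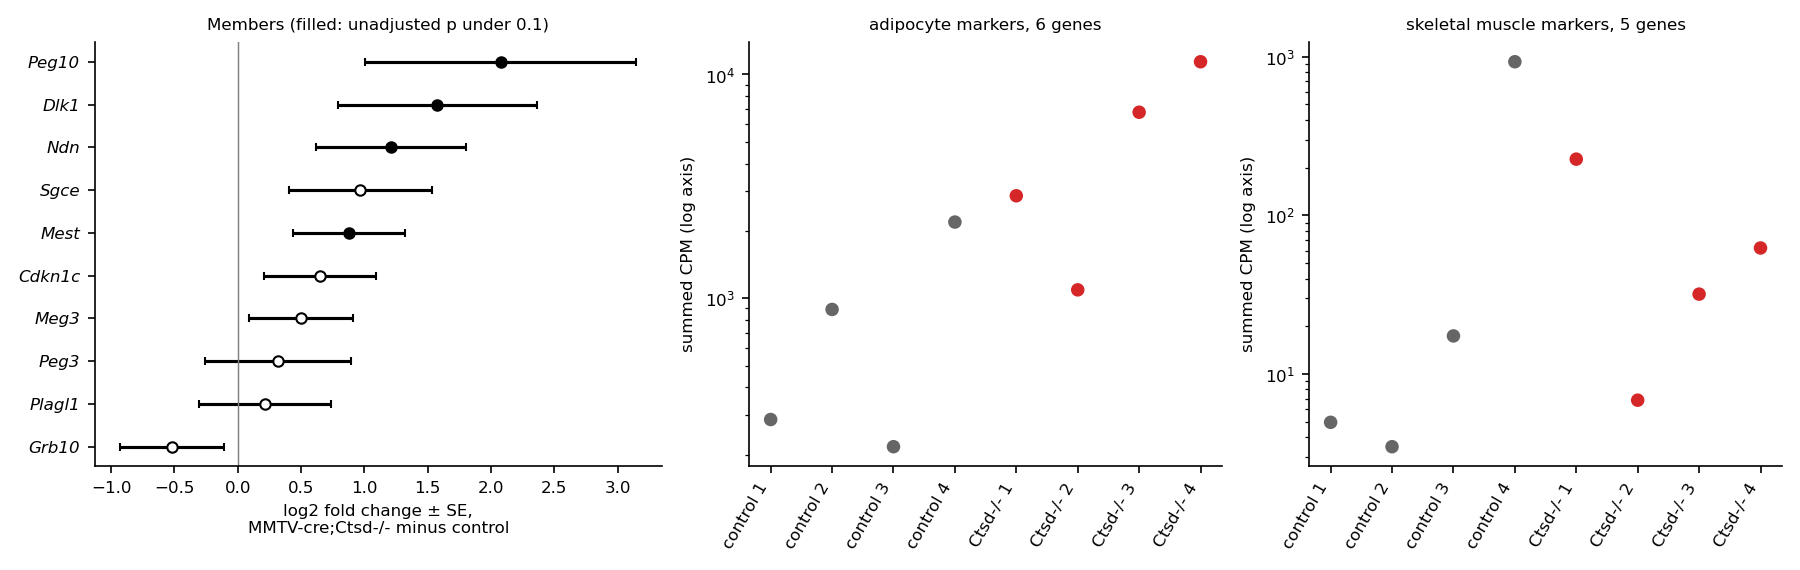
Left, log2 fold change ± SE of the 10 imprinted genes in MMTV-cre;Ctsd-/- against control tumors (n = 4 each), filled where the unadjusted p was under 0.1; middle and right, summed CPM of 6 adipocyte and 5 skeletal muscle markers in each tumor on a log axis. Of the 10 genes, 9 lie to the right of 0, and MMTV-cre;Ctsd-/- tumors 3 and 4 have the most adipocyte marker counts, 6780 and 11400 CPM.

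The tumor calls depended on single tumors. Without control tumor 4 or without MMTV-cre;Ctsd-/- tumor 3 none of the 10 genes was past the threshold, without control tumor 3 only Dlk1 and without MMTV-cre;Ctsd-/- tumor 4 only Mest, whereas without control tumor 2 the count was 6. Without both muscle-rich tumors the 3 genes past the threshold were Peg10 and Sgce, higher, and Grb10, lower (log2 fold change -0.87). Among 50 other imprinted genes tested 6 were higher and 2 lower (16.7% of all genes were past the threshold), with a median log2 fold change of 0.139. Nap1l5, Slc22a3 and Commd1 are named for the size of their change in this comparison, so their p-values are no separate support. The permutation test uses the same 8 tumors. Nap1l5 had 0.130, 0, 0 and 0.122 CPM in controls and 0.319, 0.426, 1.88 and 0.846 CPM in MMTV-cre;Ctsd-/- tumors (3.77 ± 1.07 SE, unadjusted edgeR p = 0.00547, adjusted p = 0.416, exact permutation p = 0.0286). Slc22a3, an organic cation transporter, had 0.227 to 2.59 CPM against 2.15, 1.38, 11.7 and 12.7 (2.46, edgeR adjusted p = 0.528). Igf2, a fetal growth factor, had 0.0899 to 0.696 CPM against 0.058, 0.279, 4.18 and 2.36 (2.25, adjusted p = 0.576). MMTV-cre;Ctsd-/- tumors 3 and 4 were the highest of the 8 for all 3 of these genes. Commd1 (-0.66, adjusted p = 0.566) and Casd1 (-0.49, adjusted p = 0.555), the Sgce neighbor on its other side, were the 2 lower ones.

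In cells, some of the imprinted genes differed between the 2 lines. In 1% FCS, 4 of the 7 genes tested were past the same threshold (adjusted p below 0.05, log2 fold change beyond 1), as were 25% of all 15178 genes tested. Mest was higher in Ctsd-/- cells, and Peg10, Sgce and Peg3 were lower. In 1% FCS LT, 5 of 7 were past it, against 19.4% of all genes, with Mest and Peg3 higher and Sgce, Peg10 and Plagl1 lower. The median over the 7 genes was -1.96 and -0.636, against 0.000246 and 0.0145 over all genes. These are 7 genes of a pair of lines, and their share says nothing of other lines.

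Sgce, encoding epsilon-sarcoglycan of the dystrophin-associated complex, and Peg10 were the pair with the largest genotype difference. Sgce had 36.6, 38.0 and 28.6 CPM in the 3 Ctsd+/+ 1% FCS libraries and 0.624, 0.0561 and 0.0602 CPM, or 25, 2 and 2 counts, in the Ctsd-/- ones (log2 fold change -7.08 ± 1.23 SE, edgeR adjusted p = 0.00059). Peg10 had 19, 26.6 and 35.7 CPM against 0.324, 0.0841 and 0.0301 CPM, or 13, 3 and 1 counts (-7.48 ± 1.17 SE, adjusted p = 0.00028). No Ctsd-/- library came near the Ctsd+/+ range, and 55.5% of all genes tested had no overlap between these groups. After 12 weeks Sgce stood at 16.4, 15.6 and 22.3 CPM in Ctsd+/+ cells and at 3.33, 0.0268 and 0.0504 CPM, or 134, 1 and 2 counts, in Ctsd-/- cells (-3.97 ± 1.02 SE, adjusted p = 0.00882). Peg10 stood at 7.60, 7.48 and 13.1 CPM against 2.31, 0.0803 and 0.0252 CPM, or 93, 3 and 1 counts (-3.52 ± 0.930 SE, adjusted p = 0.0104). Replicate 1 of the Ctsd-/- 1% FCS LT cells thus had counts of both genes that the other 2 lacked.

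Without that replicate the log2 fold changes in 1% FCS LT were -8.73 for Sgce (edgeR adjusted p = 3.4e-05) and -7.40 for Peg10 (adjusted p = 4.16e-05). The library was then compared with the other Ctsd-/- libraries over genes with at least 1 CPM in all 6 Ctsd+/+ libraries and at most 0.1 CPM in the 5 other Ctsd-/- libraries. Of 52 such genes, 1 was above 0.1 CPM in it and none reached 1 CPM, and it had 0 counts of Kcnq1ot1 and Peg12 like the rest of its line. Whether Ctsd+/+ cells were mixed into this library was not tested, nor whether all or few of its cells carried Sgce and Peg10 transcripts. Over the 12 cell libraries r between log2 CPM of Sgce and Peg10 was 0.989, the highest of 21 pairs, and for either gene the other was the most similar of all genes tested in cells. Casd1, next to Sgce on the other side, lay at 31.6 to 42.9 CPM in all 12 libraries, with a log2 fold change of -0.15 in 1% FCS (adjusted p = 0.342) and 0.09 in 1% FCS LT (adjusted p = 0.611).

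**Figure D3:**
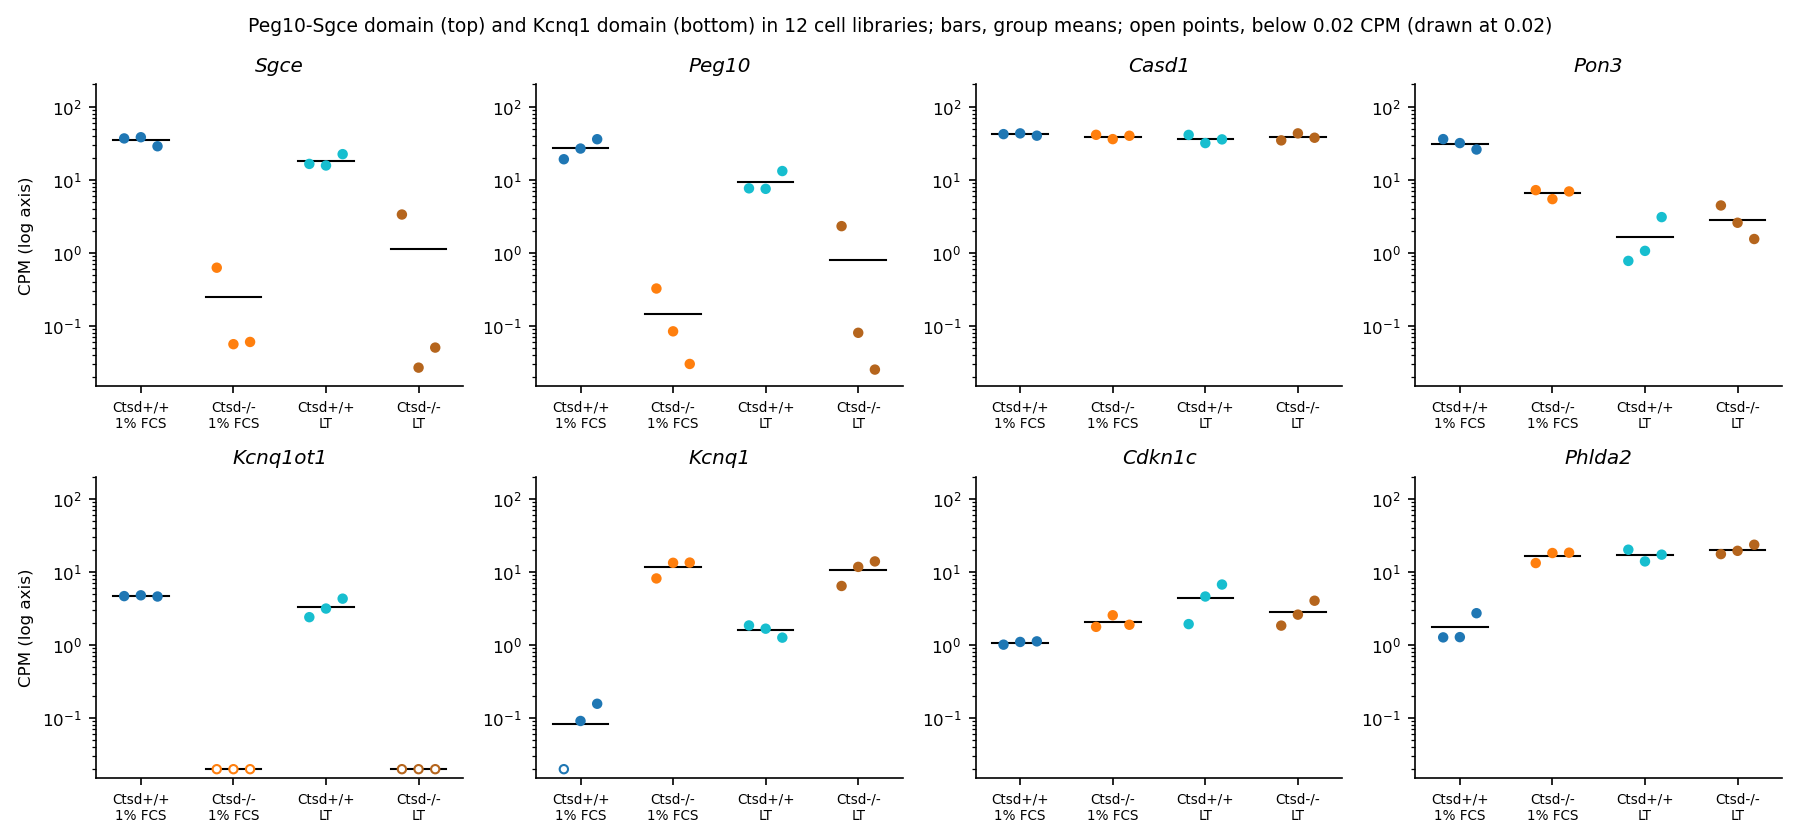
CPM on a log axis of 4 genes around Sgce and Peg10 (top) and 4 genes of the Kcnq1 cluster (bottom) in the 12 cell libraries; points are libraries, bars group means, and open points lie below the lower end of the axis and are drawn there. Sgce and Peg10 separate the lines while Casd1 stays between 31.6 and 42.9 CPM, and Kcnq1ot1 is at the lower end in all 6 Ctsd-/- libraries.

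Mest moved the opposite way. It had 1.5, 3.41 and 4.75 CPM in Ctsd+/+ and 6.19, 16.9 and 22.6 CPM in Ctsd-/- cells in 1% FCS (log2 fold change 2.19 ± 0.480 SE, edgeR adjusted p = 0.00275). In 1% FCS LT it had 4.12, 4.16 and 3.47 CPM against 48.6, 25.1 and 50.2 CPM (3.40 ± 0.495 SE, adjusted p = 0.000234). The groups did not overlap at either time, as held for 55.5% and 54% of all genes tested. Because Mest overlaps Copg2, both strands were inspected. Mest had 52 to 182 counts on its own strand in Ctsd+/+ 1% FCS cells, 248 to 752 in Ctsd-/- 1% FCS, 130 to 149 in Ctsd+/+ 1% FCS LT and 937 to 1991 in Ctsd-/- 1% FCS LT.

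Copg2, a coatomer subunit, had counts on the strand opposite to the gene of 21 to 52, 75 to 185, 37 to 44 and 283 to 493 in the same order of groups. On its own strand it had 1465 to 1818, 3428 to 4357, 2348 to 2780 and 3373 to 3801 counts, with a log2 fold change of 1.09 in 1% FCS (edgeR adjusted p = 6.9e-06) and of 0.40 in 1% FCS LT (adjusted p = 0.00841, below the fold threshold). Without strand, reads in the overlap would be left out, and Mest had 695 to 1559 counts in Ctsd-/- 1% FCS LT cells in that column. In tumors, where strand was not used, this loss applies to the Mest values.

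**Figure D4:**
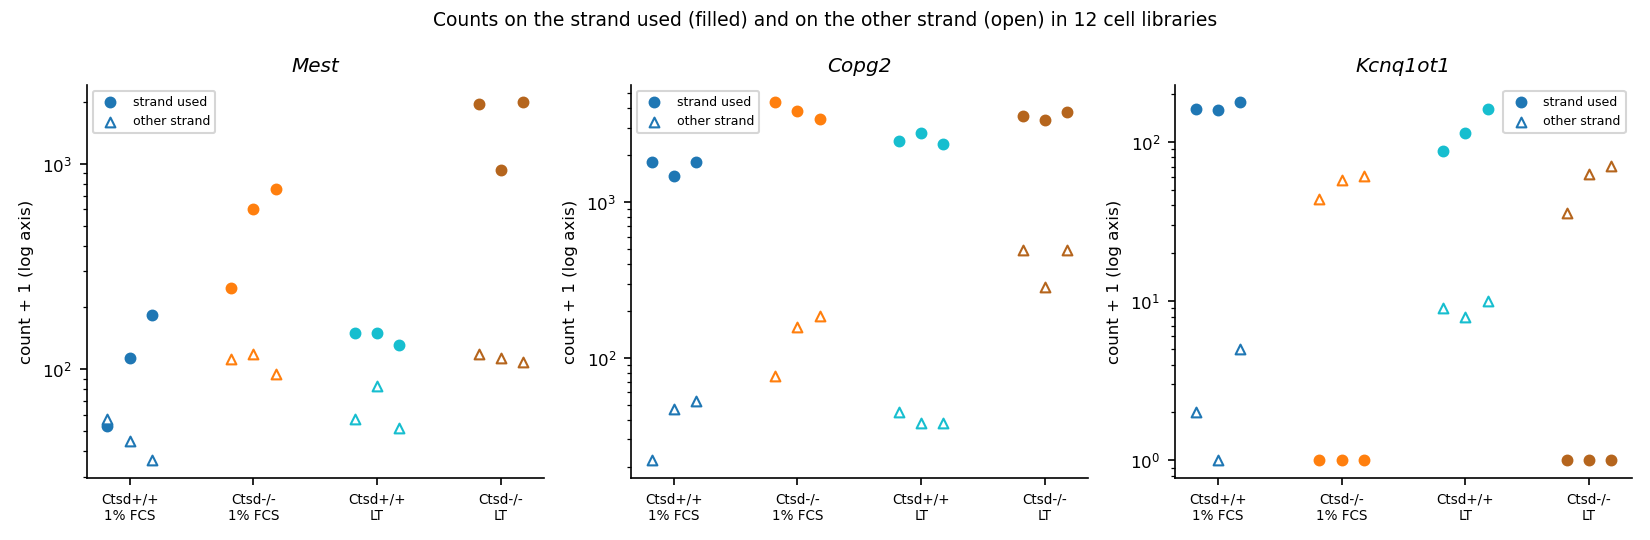
Counts plus 1 on the strand used (filled circles) and on the other strand (open triangles) of Mest, Copg2 and Kcnq1ot1 in the 12 cell libraries, on a log axis. The other strand of Copg2 is highest in Ctsd-/- 1% FCS LT cells (283 to 493 counts), and Kcnq1ot1 in Ctsd-/- cells has counts only on its other strand.

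Peg3 differed between the lines in opposite directions at the 2 times. In 1% FCS it had 21.8, 10.7 and 20.8 CPM in Ctsd+/+ and 7.18, 1.88 and 1.71 CPM in Ctsd-/- cells (log2 fold change -2.35 ± 0.727 SE, edgeR adjusted p = 0.0185). In 1% FCS LT it had 0.138, 0.67 and 1.42 CPM against 1.86, 2.38 and 6.85 CPM (2.32 ± 0.781 SE, adjusted p = 0.0336). The groups did not overlap at either time, as held for 55.5% and 54% of all genes tested. The level that moved between the times was that of the Ctsd+/+ line. In 1% FCS the call was lost without Ctsd-/- replicate 2 (-2.05, adjusted p = 0.0712) or 3 (-2.02, adjusted p = 0.0706). In 1% FCS LT it was lost without Ctsd+/+ replicate 1 (1.84, adjusted p = 0.0962) or 2 (2.25, adjusted p = 0.0963), without Ctsd-/- replicate 3 (1.52, adjusted p = 0.157) and in limma-voom (2.55, adjusted p = 0.0547). Usp29, which starts on the other side of the printed stretch, had 0 to 9 counts in every library.

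Plagl1 was lower in Ctsd-/- cells in 1% FCS LT, at 1.99, 1.15 and 1.26 CPM against 4.23, 4.58 and 3.66 CPM in Ctsd+/+ cells (log2 fold change -1.50 ± 0.436 SE, edgeR adjusted p = 0.0172). The groups did not overlap, as held for 54% of all genes tested. The call was lost without Ctsd+/+ replicate 2 (-1.43, edgeR adjusted p = 0.0517), Ctsd-/- replicate 2 (-1.35, adjusted p = 0.0695) or Ctsd-/- replicate 3 (-1.39, adjusted p = 0.0586). In 1% FCS it had 1.10, 0.639 and 0.418 against 0.773, 0.309 and 0.211 CPM (-0.77, adjusted p = 0.215). Cdkn1c was not past the threshold at either time. It had 1.01, 1.10 and 1.12 CPM in Ctsd+/+ and 1.77, 2.55 and 1.89 CPM in Ctsd-/- cells in 1% FCS (0.89, edgeR adjusted p = 0.0976). These groups did not overlap, as held for 55.5% of all genes tested. In 1% FCS LT it had 1.93, 4.60 and 6.71 against 1.84, 2.60 and 4.03 CPM (-0.64, adjusted p = 0.228). Grb10 was near its floor in the cells, with 0.0301 to 2.03 CPM, and not past the threshold in 1% FCS (-1.96, adjusted p = 0.122) or 1% FCS LT (-0.61, adjusted p = 0.681); in 1% FCS it was past it without Ctsd-/- replicate 1 (-4.30, adjusted p = 0.0151) and within the libraries of 1 LR number (-2.79, adjusted p = 0.0392).

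The change between 10 days and 12 weeks of starvation was tested in each line. By edgeR, Plagl1 and Cdkn1c were higher and Peg3 was lower after 12 weeks than after 10 days in Ctsd+/+ cells, 3 of 7 genes, against 23.4% of all genes tested. Peg3 dropped from 10.7 to 21.8 CPM to 0.138 to 1.42 CPM (log2 fold change -4.66 ± 0.83 SE, edgeR adjusted p = 0.000748). Plagl1 went from 0.418 to 1.10 CPM to 3.66 to 4.58 CPM (2.45 ± 0.461 SE, adjusted p = 0.0011), and Cdkn1c from 1.01 to 1.12 CPM to 1.93 to 6.71 CPM (1.95 ± 0.419 SE, adjusted p = 0.00256). None of these groups overlapped, as held for 53.8% of all genes. Peg10 and Sgce did not overlap either and were not past the threshold (-1.60, adjusted p = 0.129, and -1.01, adjusted p = 0.37). Without Ctsd+/+ 1% FCS replicate 1 and Ctsd-/- 1% FCS LT replicate 1 Peg10 was past it (-1.80, adjusted p = 0.00399), and in limma-voom both genes were, which gave 5 of 7. Mest was not past the threshold (0.21, adjusted p = 0.746). Lineage markers moved between the same groups. Of the fibroblast markers tested 5 of 6 were past the threshold and lower after 12 weeks, with a median log2 fold change of -6.91, and of the epithelial ones 5 of 7 were higher, with a median of 1.77. Col1a1, a collagen chain, went from 1430 ± 900 to 1.49 ± 1.49 CPM, and Pdgfrb, a receptor of mesenchymal cells, from 461 ± 273 to 0.324 ± 0.358 CPM (SD, n = 3). Their part in the changes of Peg3, Plagl1 and Cdkn1c was not tested.

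In Ctsd-/- cells none of the 7 genes was past the threshold between 10 days and 12 weeks by edgeR, as against 1.48% of all genes. Unadjusted p was under 0.05 for 2 of them, Plagl1 and Mest, and these 2 were past the threshold in DESeq2, with 0 in limma-voom. Plagl1 had 0.773, 0.309 and 0.211 CPM at 10 days and 1.99, 1.15 and 1.26 CPM at 12 weeks (log2 fold change 1.72 ± 0.474 SE, adjusted p = 0.0838). Mest had 6.19, 16.9 and 22.6 CPM and then 48.6, 25.1 and 50.2 CPM (1.41 ± 0.454 SE, adjusted p = 0.127). The 2 times did not overlap for either gene, as held for 25.3% of all genes tested. Without Ctsd-/- 1% FCS replicate 1 Plagl1 was past the threshold (2.45, adjusted p = 0.036). Sgce and Peg10 had positive values (2.11, adjusted p = 0.41, and 2.36, adjusted p = 0.336) that became -2.66 and -1.52 without Ctsd-/- 1% FCS LT replicate 1.

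**Figure D5:**
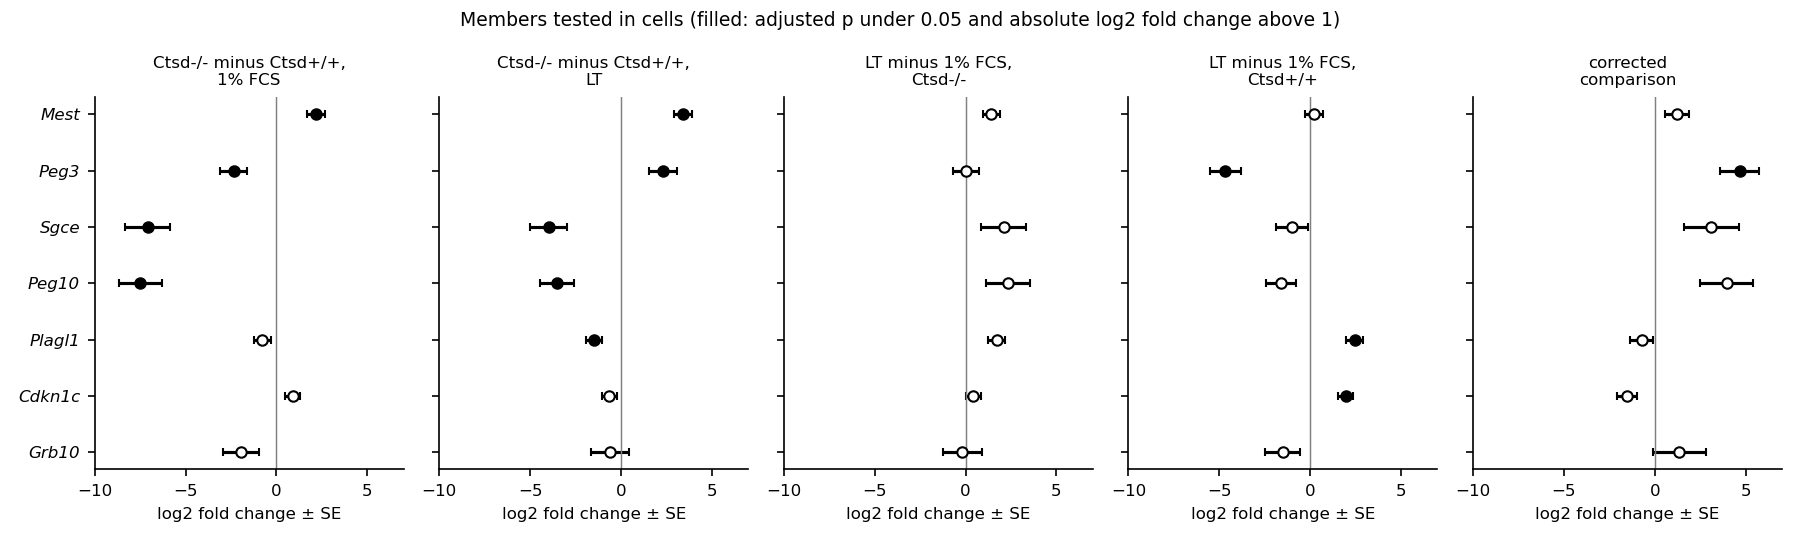
Log2 fold change ± SE of the 7 imprinted genes tested in cells, for both genotype comparisons, for 1% FCS LT against 1% FCS in each line, and for the difference of the last 2 (3 libraries per group); filled points were past the threshold. Mest lies to the right and Sgce and Peg10 to the left of 0 in both genotype comparisons, and Peg3 changes side between them.

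The study corrected the change over time in Ctsd-/- cells for that in Ctsd+/+ cells, and the same difference of differences was tested here. It shares its libraries with the 4 comparisons above. Peg3 was past the threshold (log2 value 4.67 ± 1.07 SE, edgeR adjusted p = 0.00637), 1 of 7 genes, against 19.1% of all genes tested. Peg3 lay at 1.71 to 7.18 CPM and 1.86 to 6.85 CPM in Ctsd-/- cells at 10 days and 12 weeks, so the value follows the Ctsd+/+ line. Peg10 (3.96, adjusted p = 0.0584) and Cdkn1c (-1.53, adjusted p = 0.0647) were not past the threshold. Without Ctsd-/- 1% FCS LT replicate 3 both were (4.53, adjusted p = 0.0168, and -1.87, adjusted p = 0.0344), without replicate 2 of that group Peg10 was (4.49, adjusted p = 0.0321), without Ctsd+/+ 1% FCS LT replicate 1 Cdkn1c was (-1.88, adjusted p = 0.0119), and without Ctsd-/- 1% FCS LT replicate 1 the value of Peg10 was 0.08.

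The clusters around the 10 genes were then followed in the cells. Of 39 other imprinted genes tested there, 7 were higher and 7 lower in Ctsd-/- cells in 1% FCS, 3 higher and 4 lower in 1% FCS LT, 7 higher and 7 lower after 12 weeks in Ctsd+/+ cells, and 0 past the threshold after 12 weeks in Ctsd-/- cells by edgeR, DESeq2 or limma-voom (11, 9 and 11 with an unadjusted p under 0.05). In the difference of differences 6 were higher and 4 lower. The medians of these 39 genes were 0.12, 0.287, -0.284, -0.0485 and 0.114 in that order. Of all genes tested by edgeR, 25%, 19.4%, 23.4%, 1.48% and 19.1% were past the threshold, in the same order.

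In the Kcnq1 cluster, which holds Cdkn1c, Kcnq1ot1 was read in 1 line only. This noncoding RNA, known to silence its neighbors on the paternal copy, had 4.66, 4.78 and 4.60 CPM in Ctsd+/+ 1% FCS and 2.40, 3.15 and 4.30 CPM in Ctsd+/+ 1% FCS LT libraries. All 6 Ctsd-/- libraries had 0 counts on its strand, which set the Ctsd+/+ mean at least 51.8-fold higher in 1% FCS and at least 40.9-fold higher in 1% FCS LT. On the opposite strand of Kcnq1ot1, which runs within Kcnq1, the Ctsd-/- cells had 43 to 60 and 35 to 70 counts and the Ctsd+/+ cells 0 to 4 and 7 to 9. Kcnq1, a potassium channel gene, had 0, 0.0913 and 0.157 CPM in Ctsd+/+ and 8.13, 13.3 and 13.4 CPM in Ctsd-/- cells in 1% FCS (log2 fold change 6.99, edgeR adjusted p = 2.41e-06), and 1.85, 1.67 and 1.26 against 6.41, 11.7 and 13.9 CPM in 1% FCS LT (2.74, adjusted p = 0.000314).

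Phlda2, a growth restrictor of the placenta 42.1 kb from Cdkn1c, had 1.27, 1.28 and 2.72 CPM in Ctsd+/+ and 13.2, 18.1 and 18.3 CPM in Ctsd-/- cells in 1% FCS (3.18, edgeR adjusted p = 5.76e-06). In 1% FCS LT it lay at 13.9 to 20.1 and 17.5 to 23.5 CPM (0.24, adjusted p = 0.505). Over time in the Ctsd+/+ line Phlda2 (3.20, adjusted p = 6.12e-06), Kcnq1 (4.11, adjusted p = 0.000146) and Cdkn1c (1.95, adjusted p = 0.00256) all rose, while Kcnq1ot1 was not past the threshold (-0.59, adjusted p = 0.116). In tumors Kcnq1ot1 was read in every library, at 23.1 to 66.4 CPM in controls and 50.1 to 96.6 CPM in MMTV-cre;Ctsd-/- tumors (0.39, adjusted p = 0.714). Kcnq1ot1 and Kcnq1 overlap on opposite strands, and without strand their reads cannot be told apart in the tumors.

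In the Snrpn cluster, the intronless gene Peg12 had the same split between the lines as Kcnq1ot1. It had 1.56, 1.64 and 1.49 CPM in Ctsd+/+ 1% FCS and 3.04, 3.13 and 3.15 CPM in Ctsd+/+ 1% FCS LT cells and 0 counts in the 6 Ctsd-/- libraries, at least 17.3-fold and 38.7-fold below. Mkrn3 had 0.0913 to 0.313 and 0.670 to 0.746 CPM in Ctsd+/+ cells and at most 1 count in a Ctsd-/- library, at least 2.03-fold and 8.76-fold below. Ndn, in the same cluster, was at 0 in both lines. Snrpn, which encodes a splicing protein, was read in all, at 5.00 to 6.76 CPM in Ctsd+/+ and 4.77 to 10.3 CPM in Ctsd-/- cells, and was past neither genotype threshold (0.73, edgeR adjusted p = 0.0134, and 0.32, adjusted p = 0.263).

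In the Igf2-H19 cluster, the noncoding RNA H19, which starts 190 kb from Ctsd, had 3.91, 3.35 and 0.757 CPM in Ctsd+/+ 1% FCS and 0.524, 0.365 and 0.0902 CPM in Ctsd-/- 1% FCS cells (log2 fold change -3.06, edgeR adjusted p = 0.00241). In 1% FCS LT it had at most 1 count in a Ctsd+/+ library, at least 31.9-fold below 1% FCS, and 0.373, 0.401 and 0.277 CPM in Ctsd-/- cells, at least 4.19-fold above. Like Peg3, H19 thus changed side between the times with the Ctsd+/+ line. Igf2 had 12.1, 0.517 and 0.0522 CPM in Ctsd+/+ 1% FCS cells, and its lower level in 1% FCS LT (0.110 to 0.508 CPM; -3.91, adjusted p = 0.0328) rests on the replicate with 12.1 CPM, since the other 2 lie above and below the 1% FCS LT range. Of the remaining genes, Qpct was lower in Ctsd-/- cells in 1% FCS (6.40 to 17.1 against 0 to 0.125 CPM; -7.82, adjusted p = 1.2e-05) and after 12 weeks in Ctsd+/+ cells (-5.21, adjusted p = 5.8e-05). Pon3, in the neighborhood of Sgce and Peg10, was lower in Ctsd-/- cells in 1% FCS (25.8 to 35.8 against 5.41 to 7.18 CPM; -2.31, adjusted p = 0.00126) and after 12 weeks in Ctsd+/+ cells (-4.33, adjusted p = 3.3e-05).

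Genes with the pattern most like that of each imprinted gene were named by Pearson's r of log2 CPM (prior count 2) over the 12 cell libraries or the 8 tumors. In cells these were Zfp687 (r = 0.978) and Fip1l1 (0.970) for Mest, Peg10 (0.989) and Timp3 (0.975) for Sgce, Sgce (0.989) and Mdp1 (0.976) for Peg10, Upf2 (0.974) and Ppm1e (0.970) for Peg3, Serpina9 (0.963) and Rasal1 (0.953) for Plagl1, Mpp1 (0.944) and Wbp2 (0.938) for Cdkn1c, and Ahnak2 (0.930) and Ankrd12 (0.926) for Grb10. Mest ran against Sgce (r = -0.799) and Peg10 (-0.782), with a median of 0.0937 over the 21 pairs. In tumors the leading genes were Pcdh12 (0.957) for Dlk1, Fpr2 (0.988) for Meg3, Rasal3 (0.948) for Peg3, Mbp (0.977) for Mest, Dock2 (0.989) and Hcls1 (0.984) for Plagl1, Trim29 (0.983) for Cdkn1c, Emb (0.969) for Grb10, Gm6665 (0.987) and Spon2 (0.982) for Ndn, Akap1 (0.977) for Sgce and Rtf2 (0.987) for Peg10. Among the 10 genes the closest tumor pairs after Sgce and Peg10 were Mest and Plagl1 (0.867), Cdkn1c and Ndn (0.864) and Dlk1 and Sgce (0.850). The points share lines, times, genotype and tissue makeup, so these values describe the libraries only.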

How the data were processed

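RNA-Seq counts of 8 PyMT tumors and 12 tumor cell cultures were analysed. Per the methods and labels, the authors trimmed reads with Trimmomatic, mapped them to GRCm38/mm10 with STAR and deposited raw read counts per gene in 3 columns, regardless of strand and for either strand; versions and the annotation release are not given in the sources used here. The opposite strand held 52.82 to 53.66% of stranded gene counts in tumors and 97.09 to 97.29% in cells, so column 2 was used for tumors and column 4 for cells. GENCODE M21 gave symbols (45143 of 45706 identifiers matched), coordinates and exon lengths. Of 63 other imprinted genes listed 61 were found (not Zim3 and Zfp264). The tests were edgeR 4.0.16 quasi-likelihood fits (R 4.3.3) with filterByExpr (minimum count 10), TMM and Benjamini-Hochberg adjustment, for the 8 tumors, the 12 cell libraries and all 20 libraries. The study's threshold was used in tumors (unadjusted p under 0.1). DESeq2 1.42.0, limma-voom (limma 3.58.1), no filter, other columns, a replicate block, single LR numbers and leaving out replicates were alternatives; leaving out 2 muscle-rich tumors or 2 cell libraries, and the permutation test in tumors, were chosen after seeing the data. Fits were also run on simulated data, which had less spread between tumors than the real data and changed only genes with higher counts. That run does not cover the real spread of the tumors or genes near the floor. The 10 genes and all gene and marker lists were chosen with earlier results of these data known. Besides the 10, the text names 11 fixed imprinted genes, up to 4 more per comparison with the largest change past its threshold, and for each of the 10 up to 2 genes most like it. Folds against groups at 0 use a floor of 3 counts per library, which covers counting error only.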

Additional observations from a re-analysis of the deposited data

Results flagged for a closer look

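Peg3 was set apart from its group in 1 control tumor, replicate 2 with 40.3 CPM, and in 1 MMTV-cre;Ctsd-/- tumor, replicate 2 with 36.2 CPM (gap over range 0.875 in each), and Sgce in MMTV-cre;Ctsd-/- tumor 1 with 7.32 CPM (0.868). These passed Dixon's test, applied to the CPM of the tumor groups, at the 95% level. Chance passes it in about 1 of 20 groups where values are normally distributed, which was not tested for CPM. The smaller cell groups were not screened.

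The change over time differed between the lines, by the edgeR test of the difference of differences, for Peg3 (log2 value 4.67, adjusted p = 0.00637), Qpct (5.74, adjusted p = 0.00758), H19 (7.87, adjusted p = 0.000873, of undetermined size because Ctsd+/+ 1% FCS LT cells had at most 1 count), Pon3 (3.11, adjusted p = 0.00362), Kcnq1 (-4.25, adjusted p = 0.000925) and Phlda2 (-2.94, adjusted p = 0.00019). A positive value means a higher change in Ctsd-/- cells.

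Reads on the strand that was not used for counting were more frequent in Ctsd-/- cells over 3 genes, of which Copg2 and Mest overlap. This is the strand of Mest for Copg2, of Copg2 for Mest and of Kcnq1 for Kcnq1ot1. The reads can therefore come from the overlapping genes described above. The lowest Ctsd-/- library had 75 counts in 1% FCS and 283 in 1% FCS LT over Copg2, against at most 52 and 44 in Ctsd+/+ cells. Over Kcnq1ot1 the values were 43 and 35 against at most 4 and 9, and over Mest 94 and 107 against at most 56 and 82.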

How the results depend on the processing

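Of 432 values from fits without 1 replicate, 378 kept their direction and their side of the threshold and 14 changed sign, and of 394 values under other settings 355 and 12 did. Leaving out 1 replicate, 0 to 6 of the 10 genes were past the threshold in tumors (4 with all), 3 to 6 of 7 between the lines in 1% FCS (4), 3 to 5 in 1% FCS LT (5), 0 to 1 over time in Ctsd-/- cells (0), 3 in each fit in Ctsd+/+ cells (3), 1 to 3 in the difference of differences (1) and 7 in each fit of tumors against cells (7). Log2 fold changes that changed sign then ranged from -0.09 to 0.72 (Plagl1) and -0.13 to 1.27 (Peg3) in tumors, over time in Ctsd-/- cells from -0.66 to 2.18 (Grb10), -2.66 to 4.20 (Sgce), -1.52 to 3.71 (Peg10) and -0.79 to 1.01 (Peg3), in Ctsd+/+ cells from -0.13 to 0.60 (Mest), in the difference of differences from -1.19 to 0.01 (Plagl1), -0.16 to 3.70 (Grb10) and -1.65 to 5.21 (Sgce), and from -0.93 to 0.77 for Dlk1 between tumors and cells. Over time in Ctsd-/- cells 2 genes were past the threshold with DESeq2 and with no filter (Mest and Plagl1), and 1 with the replicate block and within 1 LR number (Plagl1). In Ctsd+/+ cells limma-voom gave 5. In the difference of differences DESeq2, no filter, the replicate block and 1 LR number gave 2 each. Signs also changed for Plagl1 in tumors without the 2 muscle-rich tumors (-0.11), and over time in Ctsd-/- cells for Grb10 with limma-voom (0.76), the replicate block (0.23) and within 1 LR number (2.04), for Peg3 with the block (-0.08), for Cdkn1c within 1 LR number (-0.03), and for Sgce (-2.66) and Peg10 (-1.53) without the 2 cell libraries that stood apart. Mest in Ctsd+/+ cells was at -0.04 within 1 LR number and -0.13 without these 2 libraries, where Grb10 (-0.12) and Sgce (-1.72) changed sign in the difference of differences. None of these values was past the threshold, and the cause was not tested. Same-numbered replicates correlated in their deviations at 0.0977 to 0.359 between the lines in 1% FCS and at 0.00119 to 0.112 in 1% FCS LT. Over time the values were 0.0719 to 0.191 in Ctsd-/- cells and -0.144 to -0.0325 in Ctsd+/+ cells. The numbers were not taken to pair samples in the main fits, and the block changed no other count by over 1.5 times. DESeq2 gave no adjusted p for Sgce in the 5 comparisons of cells and for Peg3 in tumors. Genes near the floor, Dlk1 and Peg10 in tumors and Grb10 in cells, are limited by depth.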
